A study of Homo sapiens with 4 samples.

Results

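The events described here are pairs of alternative 3' splice sites, at the same exon, that lie more than 3 nt apart. An event was a member when its long and its short exon differed by more than 3 nt, and 3436 of the 4387 alternative 3' splice site (A3SS) events met that rule. They involved 3092 different pairs of sites in 2330 genes, since 1 pair can be listed with several upstream exons. Of the events left out, 928 had sites 3 nt apart and 23 had sites 1 or 2 nt apart. The edge of the rule fell between the 928 events at 3 nt and the 145 events at 4 nt. The members were divided by distance into 812 events at 4 to 20 nt, 1508 at 21 to 100 nt and 1116 at over 100 nt, and by whether the distance was a multiple of 3, which keeps the reading frame.

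The cells were U87MG, an established human tumour line that the labels give as likely glioblastoma. They were transfected with a lipid reagent, lipofectamine, with 2.5 µM of RBFOXi, a single-stranded RNA decoy with 2'-O-methyl riboses that repeats the motif bound by the splicing factors RBFOX1 and RBFOX2 (2 libraries), or with 2.5 µM of SCRM, a scrambled control oligonucleotide that was chosen to resemble no known exonic splicing enhancer (2 libraries). The labels give the oligonucleotide of RBFOXi replicate 1 as Cy5-conjugated, and they name no Cy5 conjugate for the other libraries. The replicates are described as independent biological replicates of this 1 cell line, and no untransfected cells were analysed here, so each difference below is RBFOXi against SCRM. Gene levels are not in the splicing tables, so the cell type could be checked only by the presence of listed cassette exon events. Of 8 markers of glioma lines VIM, TNC, FN1, CD44 and NES had such events, with a mean of up to 156656 counts in VIM, while SOX2, GFAP and S100B had none. Of 12 markers of other cell types CD74, SNAP25, KRT8 and MBP had events, with a mean of up to 22223, 587, 210 and 12 counts, and the others had none. A gene with no listed event may still be expressed.

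At a 3' splice site the intron ends in the dinucleotide AG, which follows a tract of pyrimidines and, further upstream, the branch point. The U2AF heterodimer binds the tract and the AG, and during the second step of splicing the spliceosome joins the upstream exon to an AG downstream of the branch point. Where a pair of AGs can serve the same exon, use of the first one met by the spliceosome, the proximal site, adds the stretch between the sites to the mRNA, and use of the second, distal site leaves it out. RBFOX proteins bind UGCAUG and are best known for regulating cassette exons, with repression from upstream and activation from downstream of the exon.

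The following sequences show what such pairs look like and are the sites of the examples described below. They are given 5' to 3' on the strand of the gene, from the hg19 genome, with the last 2 bases of the intron at each site in capitals. Pairs less than 20 nt apart are shown with both sites in 1 run, which makes visible how little sequence separates them.
SNHG17, 4 nt, region chr20:37054697-37054700 (minus strand): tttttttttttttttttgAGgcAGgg
ACLY, 4 nt, region chr17:40070150-40070153 (minus strand): gaccagcttctctctcccAGacAGgt
GPR56, 4 nt, region chr16:57675499-57675502 (plus strand): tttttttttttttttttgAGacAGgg
SMARCA4, 9 nt, region chr19:11151974-11151982 (plus strand): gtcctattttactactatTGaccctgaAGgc
PCBP2, 12 nt, region chr12:53856265-53856276 (plus strand): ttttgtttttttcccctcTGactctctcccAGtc
SERBP1, 18 nt, region chr1:67890643-67890660 (minus strand): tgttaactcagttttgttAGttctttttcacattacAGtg
RBM39, 18 nt, region chr20:34297179-34297196 (minus strand): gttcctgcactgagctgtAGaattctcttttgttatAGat
In SMARCA4 and PCBP2 the capitals at the proximal site read TG and not AG. For pairs further apart, each site is shown with the last 20 bases of the intron before it and the first 3 bases after it.
RASAL2 proximal, 21 nt, region chr1:178425835-178425855 (plus strand): aatgcttattatccaattAGggt
RASAL2 distal: gtgaaaattccttcctacAGgcg
LOC653513 proximal, 56 nt, region chr1:144852444-144852499 (minus strand): tgttttatgtttgtctgcAGgtg
LOC653513 distal: ttgtgacccttgccttccAGgaa
HNRNPK proximal, 60 nt, region chr9:86584296-86584355 (minus strand): ttttttcttttcttttatAGtgt
HNRNPK distal: atattttttcttttttatAGtgt
FN1 proximal, 360 nt, region chr2:216236739-216237098 (minus strand): ctctaacctctctcggctAGacg
FN1 distal: caatccaaatgcctctacAGgac

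Use of the proximal site was expressed as percent spliced in (PSI), here on a scale from 0 to 1: the inclusion counts divided by the effective length of the long form, as a share of that value plus the same value of the short form. A PSI near 1 means that nearly all mRNA carried the stretch between the sites. Counts over the members came to between 2691910 and 3195545 per library. An event was tested if no library had fewer than 5 counts, the mean was at least 20 and each form had 4 or more in total, which left 2314 of the 3436 members (67.3%), from 2192 pairs of sites in 1725 genes. A tested member had a median of 185 counts in the shallowest library and 318 in the deepest. The effective length of the short form was under 20 nt in 42 tested members and 1 nt at the least, where PSI leans on the length correction. PSI of the members can depend on other events at the same place, since 1675 of the 3436 members (48.7%) used an exon that was also listed as a cassette exon and 91 (2.65%) an intron also listed as retained. Reads on a long stretch between the sites cannot be told apart from reads of unspliced intron.

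The most frequent distances were the shortest ones and multiples of 3. The most common distances were 4 nt with 145 events and 5 nt with 106 events, followed by 15, 6, 21 and 24 nt with 74, 71, 70 and 62 events, all multiples of 3. From 9 nt on, most multiples of 3 had more events than the distances on either side. The median distance was 54 nt and the longest 8151 nt,. Multiples of 3 made up 42.1% of all members, with 37.4% at 4 to 20 nt, 46.3% at 21 to 100 nt and 446 of 1116 events at over 100 nt.

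**Figure D1:**
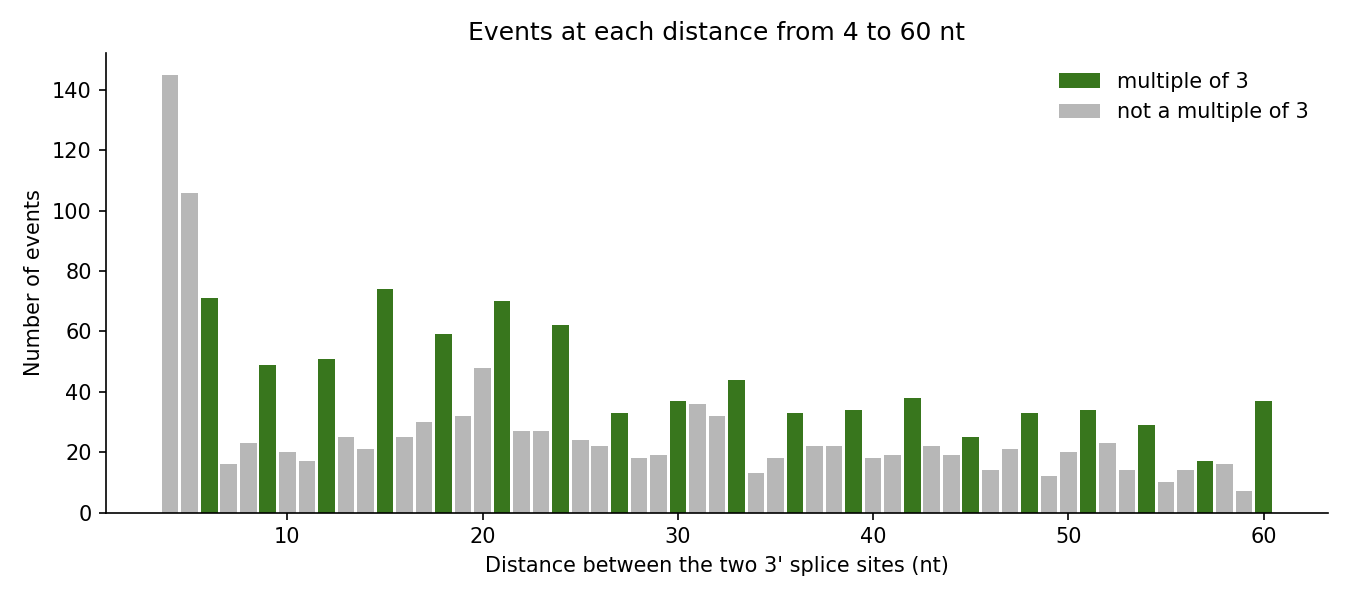
Number of events (vertical axis) at each distance between the sites from 4 to 60 nt (horizontal axis), with multiples of 3 in green and other distances in grey. The bars at 4 and 5 nt stand at 145 and 106 events, and from 6 nt on most green bars are taller than the grey bars beside them.

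The share that kept the frame depended on where the stretch lay in the annotated transcripts (GENCODE 44 lifted to hg19). Of the 1578 pairs whose stretch lay in coding sequence, 856 (54.2%) were a multiple of 3 apart. Of the 366 pairs whose stretch lay in a 5' UTR the figure was 90 (24.6%), and of the 846 pairs whose proximal site was used by no coding transcript it was 255 (30.1%). The remaining pairs were part coding (278) or in a 3' UTR (24). Coding stretches were most frequent at 4 to 20 nt, with 65.5% of pairs, and least frequent at over 100 nt, with 26.2%. At over 100 nt the largest group was that of pairs with no coding transcript at the proximal site, with 42.3%. Both sites were annotated exon starts in 2689 of the 3092 pairs. The distal site was annotated less often than the proximal one at 4 to 20 nt, with 84.8% against 93.7%.

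Use of the proximal site differed with distance in every library. From 4 to 11 nt the proximal site was the major one, with a median PSI in SCRM (mean of 2 libraries) of between 0.863 and 0.976 at each of the 8 distances. From 12 to 24 nt the median lay between 0.109 and 0.582, and the distal site was the major one at 11 of the 13 distances. From 25 to 60 nt the medians went from 0.0381 to 0.929 with no steady trend, and 24 of the 36 distances had a median above 0.5. Over all tested members of each stretch, the median PSI in RBFOXi replicates 1 and 2 and SCRM replicates 1 and 2 was 0.939, 0.936, 0.934 and 0.933 at 4 to 11 nt. At 12 to 24 nt it was 0.320, 0.288, 0.297 and 0.292, and at 25 to 60 nt 0.587, 0.627, 0.596 and 0.617. The spread of the 4 libraries within a stretch was much smaller than the difference between the stretches. These 3 stretches were chosen after the values were seen, and 9 to 95 tested events stood behind each distance up to 24 nt.

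**Figure D2:**
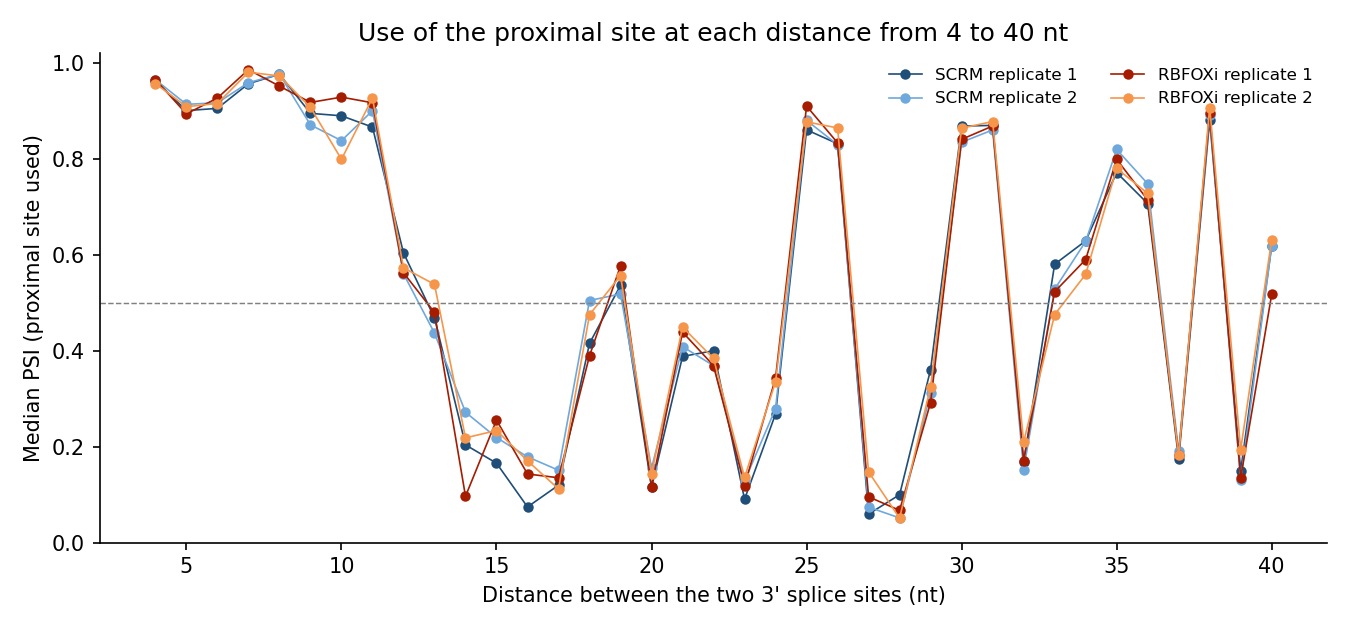
Median PSI of tested events (vertical axis, 0 to 1) at each distance between the sites from 4 to 40 nt (horizontal axis), 1 coloured line per library, with the dashed line at 0.5. All 4 libraries lie at 0.798 or above from 4 to 11 nt and at 0.604 or below from 12 to 24 nt, after which single distances scatter widely.

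By the preset classes, the median PSI in SCRM was 0.828 ± 0.0125 (SD, n = 2) at 4 to 20 nt, 0.594 ± 0.0108 at 21 to 100 nt and 0.732 ± 0.0101 at over 100 nt. In RBFOXi it was 0.829 ± 0.00218, 0.589 ± 0.0186 and 0.752 ± 0.00837. The median over all members was 0.711 ± 0.00567 in SCRM and 0.713 ± 0.00939 in RBFOXi, with an exact permutation p of 1 (two-sided). With 2 libraries against 2 that test cannot give less than 0.333, the value it gave for the class over 100 nt. At 4 to 20 nt the members that did not keep the frame had the higher PSI, 0.873 ± 0.00308 in SCRM against 0.720 ± 0.0281 for those that did. This order held only with the 168 tested events at 4 or 5 nt, which had medians of between 0.940 and 0.943 in the 4 libraries. The 161 other events of that group, at 7 to 20 nt, had medians of between 0.413 and 0.492. These were lower than the medians of the members that kept the frame, between 0.700 and 0.740.

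Most members used 1 of the 2 sites nearly always. In SCRM the mean PSI was under 0.1 in 590 tested members (25.5%) and over 0.9 in 812 (35.1%), which left 912 (39.4%) in between. The share of the minor form, the smaller of PSI and 1 minus PSI, had a median of 0.0588 ± 0.000926 (SD, n = 2) in SCRM and 0.0631 ± 0.00197 in RBFOXi. It was lower than at sites 3 nt apart, where the median was 0.225 ± 0.00742 in SCRM. Members that kept the frame were more mixed than those that did not, with a median minor share of 0.0708 ± 0.00479 against 0.0525 ± 0.000109 in SCRM. Within coding sequence the same difference was seen in all 4 libraries. There the minor form reached a share of 0.1 in 42.4, 42.7, 42.2 and 42% of the 647 tested pairs that kept the frame (RBFOXi replicates 1 and 2, then SCRM replicates 1 and 2). Of the 514 tested coding pairs that did not keep it, 31.5, 30.9, 31.7 and 31.7% did so. The gap was widest at 4 to 20 nt, with between 42.4 and 46.5% of 170 pairs against between 22.4 and 26.4% of 174 pairs. It was narrow at over 100 nt, with between 39.6 and 44.3% against between 38.8 and 41.2%.

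The place of the stretch went with the level of PSI. Pairs with a coding stretch had a median PSI in SCRM of 0.883 ± 0.00262 (SD, n = 2), and pairs in a 5' UTR had 0.447 ± 0.0161. Pairs whose proximal site was used by no coding transcript had 0.0597 ± 0.00126 in SCRM and 0.0722 ± 0.00513 in RBFOXi, so that the mRNA mostly left the stretch out. In this last group PSI was higher at over 100 nt (0.220 ± 0.0338 in SCRM) than at 4 to 20 nt (0.0335 ± 0.00557) or 21 to 100 nt (0.0222 ± 0.00206). Annotation is itself built from observed transcripts, so the level of a site and its annotation are not independent.

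The sequences of the sites were compared by a score, the log2 odds of the last 20 intron bases and the first 3 exon bases against their average composition, learnt from 56692 3' splice sites of cassette exons. Those sites had a median score of 7.26. Close pairs share scored bases, since at the shortest distances the last 20 intron bases before the distal site include the proximal AG. The members scored lower at 4 to 20 nt, with medians of 4.96 at the proximal and 5.85 at the distal site, and the medians were 6.32 and 6.33 at 21 to 100 nt and 7.19 and 6.87 at over 100 nt. The proximal site ended in AG in 3069 of the 3092 pairs (99.3%) and the distal site in 3090. Of the 23 other proximal sites 14 ended in TG, and SMARCA4 and PCBP2 are among them. Sites ending in CAG or TAG made up 76.4% of proximal sites at 4 to 20 nt against 93.8% at over 100 nt, and 90.4% and 91.0% of the distal sites. A proximal site at 4 to 20 nt was followed directly by the distal one, with no other AG between them in 91.5% of pairs. At 21 to 100 nt that share was 26.2%, and at over 100 nt the stretch held a median of 19 other AGs.

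PSI followed the score difference most closely at 4 to 20 nt by rank correlation, but not by every measure. With PSI averaged over the 4 libraries for each pair, the median at 4 to 20 nt went from 0.977 where the proximal site scored higher by 4 or more (51 pairs) to 0.236 where the distal site did (132 pairs). At 21 to 100 nt it went from 0.929 (97 pairs) to 0.0864 (99 pairs). At over 100 nt it went only from 0.832 (74 pairs) to 0.509 (51 pairs). As a description across pairs, which share libraries and are not replicates, Spearman's rho of PSI with the distal minus the proximal score was -0.50 over 519 pairs, -0.33 over 978 and -0.11 over 695 in the 3 classes. The higher scoring site was also the more used one in 64.5, 62.6 and 53.7% of pairs. Where the higher scoring site was the proximal one, these shares were 84.4, 65.5 and 62.2%. Where it was the distal one, they were 49.5, 59.8 and 43.6%.

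**Figure D3:**
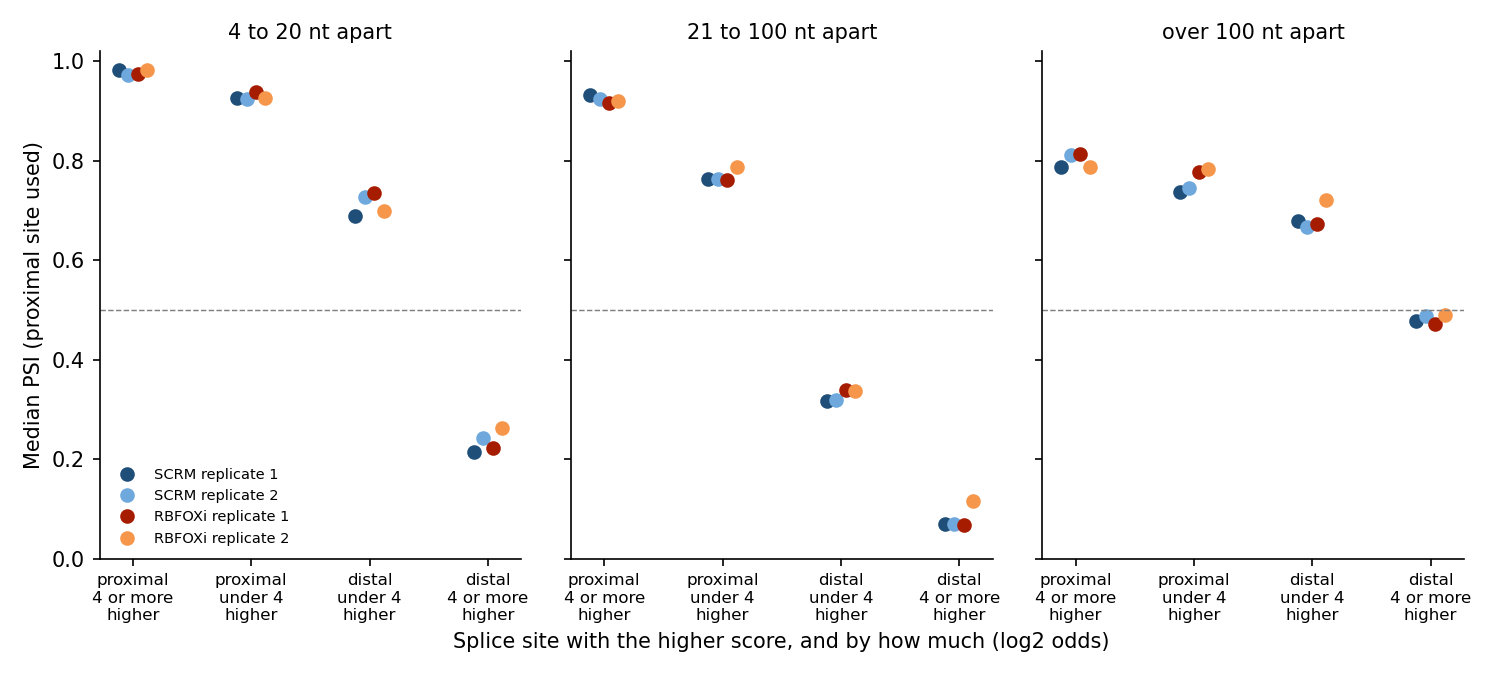
Median PSI (vertical axis, 0 to 1) of tested pairs in 4 groups by which site had the higher score and by how much (horizontal axis, log2 odds), in 3 panels by distance class, with 1 coloured point per library. The rightmost points, where the distal site scored higher by 4 or more, lie between 0.214 and 0.263 at 4 to 20 nt, between 0.0684 and 0.115 at 21 to 100 nt and between 0.471 and 0.490 at over 100 nt.

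At the same sign of the score difference, PSI still differed with distance, although the size of the score difference was not matched. At 4 to 11 nt the median SCRM PSI stayed at 0.803 over the 133 pairs in which the distal site scored higher, against 0.964 over the 159 pairs in which the proximal site did. At 12 to 24 nt the 243 pairs with the higher distal score had a median of 0.121 and the 105 pairs with the higher proximal score 0.858. The distal site had the higher score in 44.4% of pairs at 4 to 11 nt and in 69.7% at 12 to 24 nt. Median proximal and distal scores were 5.86 and 5.12 at 4 to 11 nt and 4.47 and 6.62 at 12 to 24 nt. Whether PSI differed with distance apart from the score was not tested. ACLY, which encodes the enzyme that makes cytosolic acetyl-CoA from citrate, had nearly equal scores of 8.76 and 8.84 at sites 4 nt apart. Its PSI was 0.425, 0.424, 0.447 and 0.428 (RBFOXi replicates 1 and 2, then SCRM replicates 1 and 2), in its 5' UTR. Both RBFOXi libraries lay just below both SCRM libraries, with a difference of -0.0132 and an unadjusted limma p of 0.571.

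The best covered members with a PSI of between 0.2 and 0.8 in every library are given as examples. That limit also bounds how far their libraries can differ. SERBP1, an mRNA-binding protein, had a weak proximal site (score 0.40) and a strong distal site (7.66) 18 nt apart in its coding sequence. Its PSI was 0.527, 0.539, 0.510 and 0.534 at between 6357 and 10951 counts, so that both sites were used about equally and the groups overlapped. PCBP2, a poly(C)-binding protein, had a proximal site ending in TG with a score of -4.40, but a PSI of 0.495, 0.501, 0.50 and 0.491. GPR56, an adhesion receptor, used the first AG of its 4 nt pair at 0.253, 0.271, 0.256 and 0.266. In SMARCA4, the ATPase of the BAF chromatin remodelling complex and a member of the chromatin list below, the proximal TG site (score -7.62) was used less, with 0.199, 0.159, 0.188 and 0.161. The groups overlapped in all 4 of these members.

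At 21 to 100 nt, HNRNPK, a poly(C)-binding splicing and translation factor, had almost identical sites 60 nt apart, with scores of 7.16 and 7.08. Its PSI was 0.465, 0.475, 0.449 and 0.467, again with overlapping groups. RPLP0, which encodes a protein of the ribosomal stalk, had a PSI of 0.333, 0.337, 0.274 and 0.318 at between 25074 and 27691 counts at a 60 nt pair in its 5' UTR, with both RBFOXi libraries above both SCRM libraries. The difference was 0.0393 and its limma p 0.0405 before and 0.999 after adjustment. It was 0.0172 without SCRM replicate 1, the lowest of the 4 libraries, and 0.0613 without SCRM replicate 2. In C17orf76-AS1, a host transcript of small nucleolar RNAs, the pair 53 nt apart had 0.564, 0.534, 0.596 and 0.628, with both RBFOXi libraries below both SCRM libraries (difference -0.0631, limma p 0.0140 before and 0.999 after adjustment). A quasi-binomial F test gave an adjusted p of 0.0234 for this event, whose difference was under the 0.1 required. The same proximal site paired with a distal site 132 nt away had 0.573, 0.571, 0.591 and 0.593. RNH1, the ribonuclease inhibitor, showed no such separation, with 0.650, 0.676, 0.670 and 0.666.

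At over 100 nt, FN1 was the best covered of all tested members, with between 53025 and 71778 counts. It encodes fibronectin, and the 360 nt stretch is its variable (IIICS) region, which is known to be spliced in several forms. PSI was 0.816, 0.836, 0.823 and 0.828, a difference of 0.000743, although the distal site had the higher score (7.89 against 3.81). PFN2, an actin monomer-binding profilin, had 0.290, 0.309, 0.236 and 0.292 at sites 322 nt apart. SEC22C, a vesicle transport protein, had its sites 4791 nt apart and 2 copies of UGCAUG between them, and its PSI of 0.306, 0.376, 0.227 and 0.385 differed more between replicates than between groups. APRT, an adenine salvage enzyme, had 0.730, 0.738, 0.718 and 0.754.

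No member differed between RBFOXi and SCRM at the threshold set, an adjusted limma p under 0.05 with a PSI difference of at least 0.1. The count was 0 of 2314 tested members, as over all 3009 tested A3SS events (0.0%), and the smallest adjusted p was 0.999. At an unadjusted limma p under 0.05 there were 83 members (3.59%), against 3.22% of all tested A3SS events. By class these were 14 of 536 (2.61%), 30 of 1032 (2.91%) and 39 of 746 (5.23%) from the shortest to the longest distances. The counts of the alternative fits that follow are without shares over all tested A3SS events. They do not show whether members differ from the other events. A quasi-binomial F test called 0 members at the same threshold and gave 117 an unadjusted p under 0.05. Summing each group's counts and applying Fisher's exact test, which ignores the spread between replicates, gave 17 calls. Without SCRM replicate 2, and with the lone SCRM library assumed to vary like the RBFOXi group, limma gave 233 members an unadjusted p under 0.05 and called 4. In simulated data with 200 of 3009 A3SS events changed by 2 log2 units, limma recovered 104 (52.0%) at an adjusted p under 0.05. That count did not require a PSI difference of at least 0.1, so recovery at the full threshold can only be equal or lower. Changes of this size, and smaller or thinly covered ones, could therefore have been missed.

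The differences were small and went both ways. The median PSI difference of the tested members was 0.00103, with quartiles of -0.0113 and 0.0164, against a median of 0.000938 over all tested A3SS events. Its sign was not stable, since it was -9.78e-05 without RBFOXi replicate 2 and 0.00172 without RBFOXi replicate 1. The median absolute difference was 0.0142. The median absolute difference between single replicates was 0.0208 in SCRM and 0.0197 in RBFOXi, and a difference between means of 2 libraries is smaller than one between single libraries even where nothing changes. It was 0.0119 at 4 to 20 nt, 0.0133 at 21 to 100 nt and 0.0165 at over 100 nt, and the difference between SCRM replicates went up in the same order from 0.0192 through 0.0202 to 0.0242. Both RBFOXi libraries lay below both SCRM libraries in 298 members (12.9%), against 14.2% of all tested A3SS events. They lay above both in 379 members (16.4%), against 16.7%. Frame made little difference to either share, with 13.8% below and 15.3% above among multiples of 3 and 12.2% and 17.2% among the others. SCRM replicate 1 had the fewest counts over the members.

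**Figure D4:**
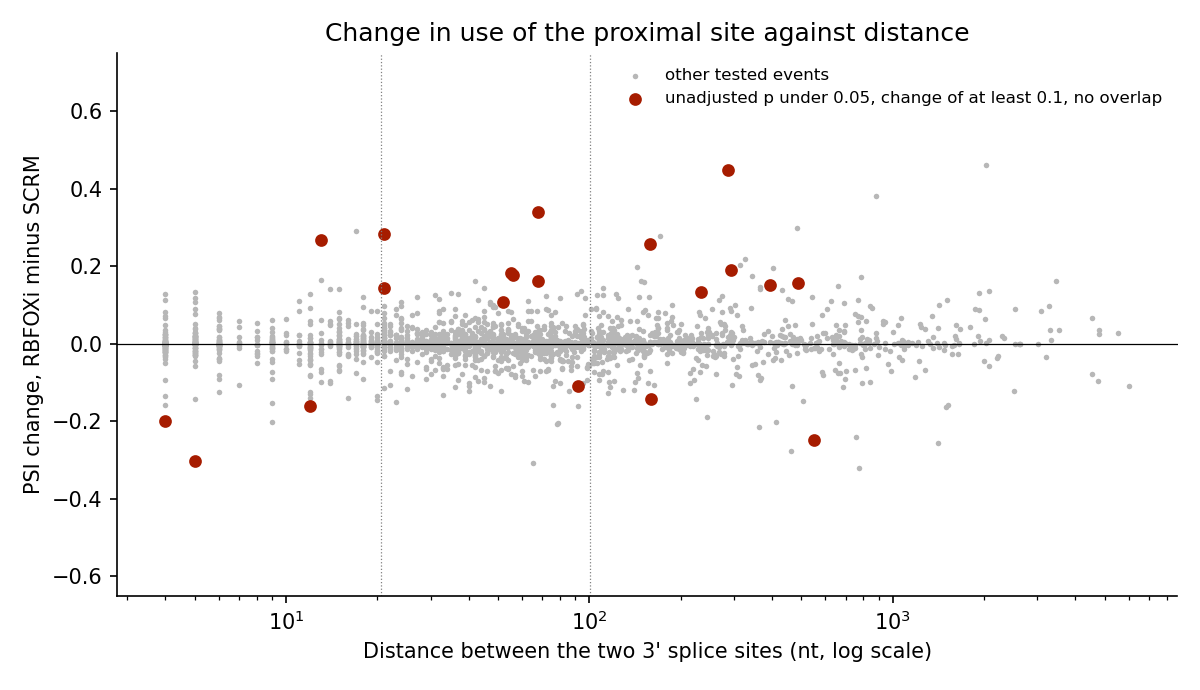
PSI difference of RBFOXi minus SCRM (vertical axis) against the distance between the sites (horizontal axis, nt, log scale) for the 2314 tested members, with dotted lines between the distance classes. The 20 events with an unadjusted p under 0.05, a difference of at least 0.1 and no overlap are in red, 6 below and 14 above 0, and the grey points of the other events centre on 0 at all distances.

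The members with the largest separation were 20 events with an unadjusted limma p under 0.05, a difference of at least 0.1 and no overlap between the groups. In 6 of them (0.259% of tested members) PSI was lower in RBFOXi, against 0.299% of all tested A3SS events, and in 14 (0.605%) it was higher, against 0.631%. These shares were near the background. Of the 20 events 8 kept the frame, against 991 of all 2314 tested members. An exon also listed as a cassette exon was used by 12 of the 20. Over all 3436 members, tested or not, it was 1675, and the share among tested members alone is not given. UGCAUG in the stretch, in the shared exon or in the 300 bases before the proximal site was present in 4, against 416 of the 2314 tested members. The 12 described next were the 6 largest of each direction, with 1 event for each pair of sites. None passed adjustment, with an adjusted p of 0.999 for each, so their values are given as a description.

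Among the members lower in RBFOXi, FBXW2, an F-box subunit of a ubiquitin ligase, had the most counts (286 to 745). PSI was 0.784 and 0.764 in RBFOXi and 0.907 and 0.859 in SCRM at sites 92 nt apart, a log2 odds change of -1.15 ± 0.33 (SE) with an unadjusted limma p of 0.00309. Both groups were tight and apart, and 2 copies of UGCAUG lay in the 300 bases before its proximal site and 1 in the shared exon. SNPH, the mitochondrial anchor syntaphilin, had 0.179 and 0.223 in RBFOXi and 0.564 and 0.335 in SCRM at sites 549 nt apart, with SCRM replicate 1 standing above the other 3 libraries at 31 counts. It too had a UGCAUG before the proximal site. NARG2, a subunit of the little elongation complex, had 0.536 and 0.676 against 0.727 and 0.767 at sites 160 nt apart in coding sequence.

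Shorter distances made up the other 3, with low counts. SNHG17, a host transcript of small nucleolar RNAs, had 0.125 and 0.160 in RBFOXi and 0.371 and 0.314 in SCRM at between 35 and 75 counts. Its 4 nt pair follows a run of T, and it was the 1 of these 3 in which the replicates of each group were closest. TRAF3IP2, an adaptor of the interleukin-17 receptor, had 0.104 and 0.0451 against 0.298 and 0.172 at sites 12 nt apart in its 5' UTR. AY660577, a noncoding transcript of the X chromosome, had 0.474 and 0.586 against 0.727 and 0.939 at sites 5 nt apart, at 11 to 33 counts.

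Among the members higher in RBFOXi, LOC653513 had the smallest unadjusted p of these 12, 0.000504 by limma. PSI was 0.833 and 0.831 in RBFOXi and 0.648 and 0.662 in SCRM at between 209 and 502 counts, a log2 odds change of 1.37 ± 0.32 (SE). The replicates of each group were nearly equal and the groups were well apart. The stretch lies within PDE4DIP and a pseudogene of it in the annotation, and near-identical copies may share its reads, so the value is uncertain. RASAL2, a GTPase-activating protein for RAS, had 0.576 and 0.406 against 0.201 and 0.217 at sites 21 nt apart in coding sequence, where the proximal site scored 4.40 and the distal site 8.89. Its log2 odds change was 1.82 ± 0.51 (SE) with an unadjusted limma p of 0.00226. It had 31 to 148 counts, with 31 in SCRM replicate 1 and 49 in RBFOXi replicate 1.

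The other 4 had fewer counts than RASAL2 in at least 1 library. PCYT2, an enzyme of phosphatidylethanolamine synthesis, had 1.00 and 0.751 in RBFOXi and 0.481 and 0.373 in SCRM, at 15 to 42 counts with between 0 and 7 of the short form. TMEM91, a membrane protein gene, had 0.923 and 1.00 against 0.809 and 0.598 at sites 159 nt apart, with 1 UGCAUG before the proximal site. PLAGL1, an imprinted zinc finger gene, had 0.349 and 0.279 against 0.0421 and 0.219 at sites 55 nt apart. WASH3P, a pseudogene with near-identical relatives, had 0.957 and 0.833 against 0.689 and 0.567 at sites 13 nt apart, and its reads may belong to other copies.

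**Figure D5:**
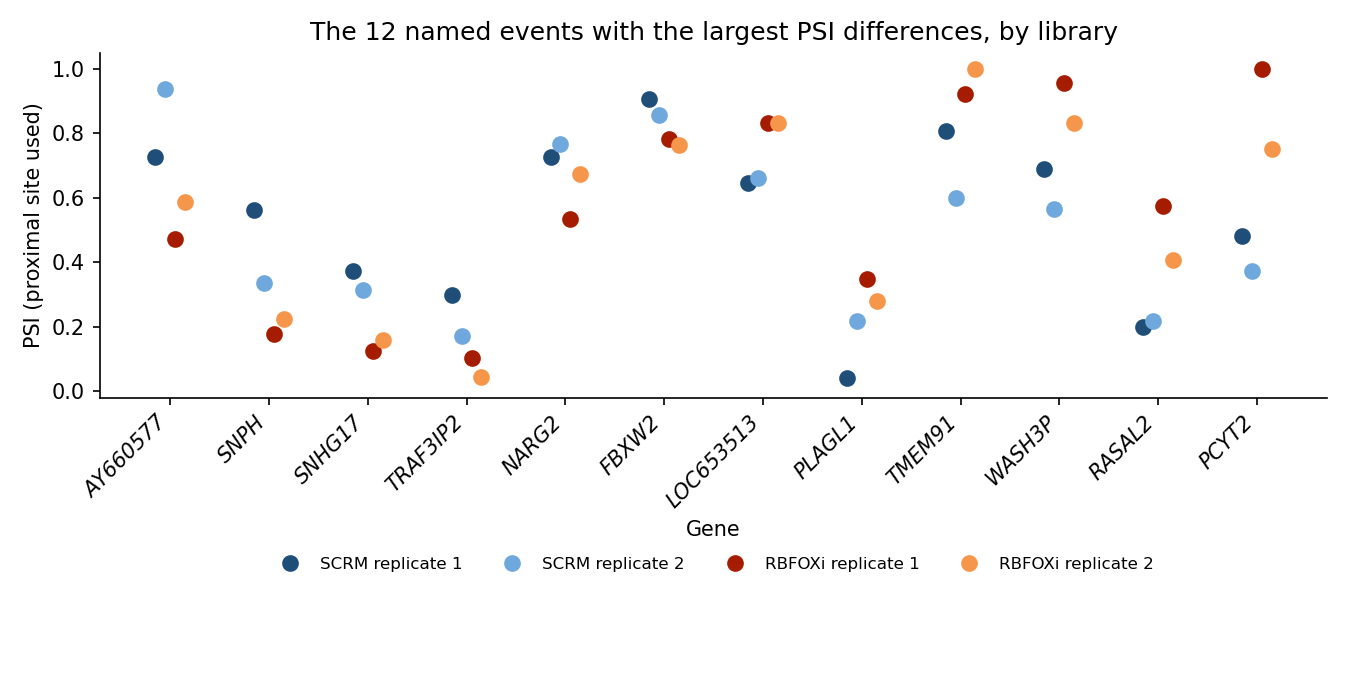
PSI (vertical axis, 0 to 1) in each of the 4 libraries, as coloured points, for the 12 named events (horizontal axis), ordered from the lowest to the highest PSI difference. LOC653513, FBXW2 and SNHG17 have replicates close together with the groups apart, whereas the replicates of the other 9 events are spread over more than 0.1 in at least 1 group.

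The same pair of sites did not always give the same value in events with another upstream exon. Of the 20 events, 3 belonged to a pair with a better covered event (COPS3, ACSL4 and AK054635), and COPS3 and ACSL4 were left out of the 12 for that reason, with differences of 0.339 and 0.190. COPS3, a subunit of the COP9 signalosome, was chosen for description after its values were seen. With 129 counts in all, its event had a PSI of 0.745 and 0.571 in RBFOXi and 0.319 and 0.319 in SCRM. The other event at the same pair, 68 nt apart, had 1868 counts and a difference of 0.0080.

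Of the members called by Fisher's exact test, which also had to differ by at least 0.1, 3 of the 6 with the smallest p have not yet been described. BMP1, the protease that removes the C-propeptide of procollagens, had 0.194 and 0.141 in RBFOXi and 0.372 and 0.186 in SCRM at sites 685 nt apart and at 892 to 1434 counts. Its groups overlapped in range only slightly, with SCRM replicate 1 far above the rest (difference -0.111, limma p 0.0113 before and 0.999 after adjustment). Without SCRM replicate 2 the difference was -0.204 with an adjusted limma p of 2.49e-07, and without SCRM replicate 1 it was -0.0181. UGCAUG lay once in the 300 bases before its proximal site. DDIT3, the stress-induced transcription factor CHOP, had 0.735 and 0.410 against 0.809 and 0.654, and ABCA2, a lipid transporter of lysosomes, had 0.426 and 0.197 against 0.211 and 0.0663. In both, the RBFOXi replicates were further apart than the group means.

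The gene lists below are short, and 3.22% of all 3009 tested A3SS events had an unadjusted limma p under 0.05, with 0 called. Beside that share, a count of 0 or 1 in a list does not set its genes apart. Genes of the 3' splice site recognition machinery had few members. Of 31 genes listed, 3 had a member, with 7 tested events, none called and none with an unadjusted p under 0.05. RBM39, a U2AF-related factor, had a PSI of 0.371, 0.404, 0.386 and 0.426 at its 18 nt pair. Its effective lengths were only 29 and 11 nt, so this level leans on the length correction. The plain shares of inclusion counts were 0.609, 0.641, 0.623 and 0.662. U2AF1L4, a relative of the AG-binding U2AF subunit, had 0.431, 0.695, 0.606 and 0.754 at a 25 nt pair, with both groups widely spread. SUGP1, a partner of the branch point protein SF3B1, had 0.597, 0.745, 0.711 and 0.597. Of 10 tested events in SR proteins and related factors, none was called. Against 3.22% of all tested A3SS events, 1 was higher and 0 lower in RBFOXi at an unadjusted p under 0.05. That one was LUC7L, a U1-associated factor, with 0.243 and 0.128 in RBFOXi and 0.121 and 0.120 in SCRM, where RBFOXi replicate 1 alone stood out. ACIN1 and PNISR overlapped between groups, at 0.772, 0.759, 0.791 and 0.745 and at 0.860, 0.830, 0.871 and 0.835. The largest difference in this list, -0.320, was in CLK4, a kinase of SR proteins singled out here after its values were seen, where SCRM replicate 1 had a PSI of 1.00 from 21 counts and SCRM replicate 2 had 0.381 from 181.

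Other splicing regulators, hnRNPs included, had 21 tested events in 15 genes, none called and none with an unadjusted p under 0.05, and their median difference was -0.0140 against 0.000938 over all tested A3SS events. The list's lowest difference, -0.109, was in QKI, an RNA-binding regulator of splicing singled out here after its values were seen. At sites 6027 nt apart QKI had 0.868 and 0.819 in RBFOXi and 1.00 and 0.904 in SCRM, with an unadjusted limma p of 0.0531. The event had 1843 to 4013 counts per library, nearly all of them of the long form at a stretch of this length. Its PSI thus rests on few short-form counts, with none in SCRM replicate 1. In CELF1, a regulator of splicing and mRNA decay, 2 pairs that share the distal site overlapped between groups, with 0.366, 0.329, 0.401 and 0.364 at 3211 nt and 0.368, 0.326, 0.431 and 0.354 at 1998 nt. Of the RBFOX target genes that the study followed by RT-PCR or listed, which it chose partly on these libraries, 6 had a member and 3 events were tested, with none called. In ITGA7, an integrin, the 18 nt pair had 0.840, 0.863, 0.881 and 0.834. Actin, microtubule and adhesion genes had 15 tested events with none called, among them FN1 above, MAP4 with 0.813, 0.851, 0.769 and 0.829, and PXN, the adaptor paxillin, with 0.265, 0.270, 0.266 and 0.248 at sites 144 nt apart. A second PXN event at the same distance, listed with fewer counts and chosen after its values were seen, had the list's highest difference, 0.0588. Its PSI was 0.734 and 0.684 in RBFOXi and 0.657 and 0.643 in SCRM, with no overlap and an unadjusted limma p of 0.0873.

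Of 8 tested events in apoptosis genes, none was called. Against 3.22% of all tested A3SS events, 1 was lower and 0 higher in RBFOXi at an unadjusted p under 0.05. It was CFLAR, the caspase-8 inhibitor c-FLIP, at sites 839 nt apart: PSI was 0.0952 and 0.0894 in RBFOXi and 0.250 and 0.131 in SCRM at 104 to 374 counts, with a log2 odds change of -1.13 ± 0.35 (SE), and limma p of 0.00502 before and 0.999 after adjustment. UGCAUG occurred 2 times in the stretch, 1 time in the 300 bases before it and 2 times in the shared exon. That exon is 8854 nt long, and whether these numbers are more than such lengths would hold was not tested. Without SCRM replicate 2 the difference was -0.157 with an adjusted limma p of 0.0166, and without SCRM replicate 1, whose PSI was the highest, it was -0.0387. CASP8, the initiator caspase, had 0.878, 0.864, 0.831 and 0.829 at 35 to 175 counts, with both RBFOXi libraries above both SCRM libraries but an unadjusted limma p of 0.397. The groups overlapped in BCL2L1, an apoptosis regulator, with 0.537, 0.609, 0.563 and 0.568 at an 18 nt pair. Of 18 tested events in chromatin regulators none was called and none had an unadjusted p under 0.05. CHD4 and MTA1, both of the NuRD complex, had 0.466, 0.492, 0.540 and 0.372 and 0.765, 0.811, 0.769 and 0.821. The 3 tested events of glioma and p53 pathway genes were used almost wholly at 1 site and none was called.

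UGCAUG was searched on the gene's strand, as DNA letters TGCATG. It was present in the 300 bases before the proximal site in 267 of the 3092 pairs (8.64%), against 8.42% of the same stretch before the 56692 cassette exon sites. It lay between the sites in 152 pairs (4.92%), 136 of them over 100 nt apart, and in the shared exon in 225 (7.28%). The median PSI difference was 0.00243 over the 184 tested members with the motif before the proximal site and 0.000942 over the 2130 without it. The stretch between the sites gave 0.00514 over 115 members with it and 0.000904 over 2199 without it. These medians were not tested against each other. At over 100 nt, an unadjusted p under 0.05 was found in 8 of the 56 members with the motif before the proximal site (14.3%) and in 31 of the 690 without it (4.49%), and the shares were not tested against each other. With 500 bases searched in place of 300 the shares were 10 of 106 (9.43%) and 29 of 640 (4.53%), and with 100 bases 0 of 11 and 39 of 735 (5.31%). At 4 to 20 nt the counts were 1 of 40 and 13 of 496, and at 21 to 100 nt 3 of 88 and 27 of 944. Other places of the motif gave different shares at over 100 nt. With the motif between the sites it was 3 of 103 (2.91%), lower than the 36 of 643 (5.60%) without it. For the shared exon the shares were 6 of 82 (7.32%) and 33 of 664 (4.97%).

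Some of the matches in the members described above, chosen to show those of FBXW2, SNPH and CFLAR near the alternative sites and 1 in SEC22C, are given with 9 bases on each side and the motif in capitals, in the same orientation and build as the sites.
FBXW2, before the proximal site, chr9:123550836-123550859 (minus strand): ctatgaagaTGCATGtagcacgtg
FBXW2, before the proximal site, chr9:123550716-123550739 (minus strand): tcttttgtgTGCATGgaaagtgtt
FBXW2, shared exon, chr9:123550223-123550246 (minus strand): gtggcagacTGCATGtaaaaattt
SNPH, before the proximal site, chr20:1276250-1276273 (plus strand): ggacctggcTGCATGtcctgcgtc
CFLAR, before the proximal site, chr2:202027528-202027551 (plus strand): aaacattttTGCATGtcagtagtc
CFLAR, between the sites, chr2:202027851-202027874 (plus strand): ccctgacacTGCATGctcttatat
CFLAR, between the sites, chr2:202028511-202028534 (plus strand): tttgatattTGCATGgcattaaat
SEC22C, between the sites, chr3:42593430-42593453 (minus strand): aaccacagtTGCATGgaacacttt
The proximal site lay 288 and 168 nt downstream of the motif in FBXW2, 155 nt in SNPH and 176 nt in CFLAR. In TMEM91, whose match is not listed above, the proximal site lay 95 nt downstream of the motif. PSI was lower in RBFOXi in FBXW2, SNPH and CFLAR, but higher in TMEM91. Of the 20 events with the largest separation, those with UGCAUG in any place searched were 2 lower and 2 higher in RBFOXi. The matches listed therefore do not show a direction of change. Each match is a description of these letters and does not show that a protein bound there.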

How the data were processed

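RNA-seq libraries of U87MG cells (2 RBFOXi, 2 SCRM) were analysed from the deposited tables of splicing events. Per the study's methods, the authors placed paired 100 nt reads on hg19 with STAR 2.4.2a, keeping unique alignments, and counts per event came from rMATS. The deposited values used were whole-number inclusion and skipping counts, 2 libraries joined in each cell and not normalized, and the effective lengths of both forms. The authors' inclusion levels (10 columns), their differences, p-values and FDR were not used.

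The log2 odds of inclusion and skipping counts, with a pseudocount of 0.5, were fitted by condition in limma 3.58.1 (R 4.3.3) over all 3009 A3SS events that passed the count filter, with empirical Bayes variance trended on information and Benjamini-Hochberg adjustment over all of them. The fit was tested on simulated data. Sequences and motifs were read from the GRCh37 genome, which is hg19, with GENCODE 44 gene models (Python 3.11.15, pandas 2.3.3, pysam 0.24.0, matplotlib 3.10.9). Named were the 6 lowest and 6 highest differences that passed the 3 criteria given above, the 2 best covered mixed members of each class and frame, up to 3 mixed members of each gene list, and up to 6 members called by another test. Alternatives changed the test, pseudocount, filter, centring, PSI definition, motif stretch and libraries. The members and lists were chosen with earlier results of these data known.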

Additional observations from a re-analysis of the deposited data

How the results depend on the processing

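The 0 members called by limma became 2 with the replicate number as a block (BMP1, adjusted p 0.000474, and LOC653513, 0.0309), 17 by Fisher's exact test (7 lower, 10 higher in RBFOXi), and between 0 and 4 when 1 library was left out, with C1orf51 called without RBFOXi replicate 1 and BMP1, CFLAR, PDXDC2P and SKP2 without SCRM replicate 2. The 83 members with an unadjusted p under 0.05 became 133 with the replicate block, 353 by Fisher's exact test, 117 by the quasi-binomial test and between 79 and 233 when 1 library was left out. For these alternatives no shares over all tested A3SS events are given, so the counts do not set members apart from other events. The replicate numbers were not shown to pair the samples. Across the tested A3SS events, the deviations of RBFOXi replicate 1 and SCRM replicate 1 from their group means correlated at 0.0952. With 2 libraries a group, replicate 2 gives the same value. The planned quasi-likelihood count test was not run, because each deposited cell joins the counts of 2 libraries and was not entered as a count unit.

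With PSI as a plain share of counts, the SCRM median was 0.834 over all members, 0.840, 0.707 and 0.937 in the 3 distance classes from the shortest, and 0.788 for multiples of 3 and 0.870 for the others; the median minor share was 0.0479 over all, 0.0548 at 21 to 100 nt, 0.0375 at over 100 nt, and 0.0588 and 0.0415 by frame. With a filter of 1 count, the same order gave 0.788 over all, 0.839, 0.648 and 0.873 by class and 0.731 and 0.823 by frame, with minor shares of 0.0373, then 0.0373, 0.0390 and 0.0336, then 0.0440 and 0.0332. With a filter of 20 counts, PSI was 0.728 over all, 0.765 at over 100 nt and 0.668 and 0.778 by frame, with minor shares of 0.0557 over all, 0.0537 at 21 to 100 nt and 0.0653 and 0.0496 by frame. With 1 event per pair of sites, PSI was 0.690 over all, 0.559 at 21 to 100 nt, 0.713 at over 100 nt and 0.630 for multiples of 3, with minor shares of 0.0572 over all, 0.0568 at 21 to 100 nt and 0.0489 for the others. Scored on the last 10 intron bases only, the distal site was the higher one in 48.6% of pairs at 4 to 20 nt and 49.5% at over 100 nt. By the full score these shares were 56.3% and 45.6%, so at 4 to 20 nt the site that scored higher more often depended on the score.

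The median PSI difference over all members was between -9.78e-05 and 0.00172 when 1 library was left out, so its sign changed. The direction of the PSI difference turned for 18 named events when 1 library was left out. From lowest to highest the difference was -0.00112 to 0.0232 in SERBP1, -0.00154 to 0.00727 in PCBP2, -0.00734 to 0.0105 in GPR56, -0.0181 to 0.00807 in RNH1, -0.0443 to 0.114 in SEC22C, -0.0202 to 0.0161 in APRT, -0.0380 to 0.00226 in RBM39, -0.249 to 0.0155 in U2AF1L4 and -0.0568 to 0.0908 in SUGP1. It was -0.0251 to 0.0207 in ACIN1, -0.0258 to 0.00961 in PNISR, -0.0292 to 0.0180 in ITGA7, -0.00948 to 0.0110 in FN1, -0.0285 to 0.0436 in BCL2L1, -0.0157 to 0.0244 in SMARCA4, -0.0611 to 0.107 in CHD4, -0.0326 to 0.0195 in MTA1 and -0.321 to 0.00344 in DDIT3. The causes of these changes were not tested. For single named events, 322 other values kept their direction and side of the threshold and 4 passed it. The quasi-binomial test and the fit with 1 event per pair were chosen after the data were seen. Depth limits the named changes with under 50 counts in a library, and with 2 libraries a group the spread itself is poorly known.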
